A study of Mus musculus with 30 samples.

Results

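A set of 153 genes was lower in mouse embryonic stem cells (ESCs) at each of 3, 9 and 24 h after transfer to Enhanced Metabolic Media (EMM). The members were chosen by their time-course values, out of 52630 genes in the table, of which 13207 had a mean of at least 1 CPM (counts scaled to one common total in every library) in Serum/LIF. The rule took the mean CPM of the 3 libraries of each group, and asked that log2(mean CPM + 0.5) lie at least 0.8 below Serum/LIF at all 3 times. Genes whose symbol starts with Hist, and Arrdc4, Txnip and Gpt2, were left out by name, which removed 7 genes that met the values. The time-course differences of the members are thus a description, and the members are tested in a separate experiment in which cells had been passaged in EMM. Time-course tests are given only for lists of related genes, at the end.

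All libraries were made from E14tg2a, an established mouse ESC line, grown with the cytokine LIF. In the time course (12 libraries, 3 per group), cells were in Serum/LIF, the serum-containing medium with D-glucose and pyruvate, or in EMM for 3, 9 or 24 h, which is the same medium with D-galactose in place of D-glucose and pyruvate. In the passage experiment (18 libraries, 3 per group), cells were kept in Serum/LIF (SL), EMM or 2i/LIF (2iL), a medium in which kinase inhibitors support self-renewal, for 10 passages (P10) or 20 passages (P20). One Serum/LIF group served all 3 times of the time course, so the hours spent in EMM and the change of medium itself cannot be told apart. This group is labelled 0 h, whereas the treatment protocol gives 24 h in Serum/LIF, so the time at which it was collected is not certain. Total counts ran from 24074132 to 35301962 per library in the time course and from 6944904 to 27912928 in the passage experiment.

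All 10 ESC markers of the list used (among them Pou5f1, Nanog and Sox2) were above 0 in every library of both experiments. Their sum was higher in EMM at P10 (6722 to 8672 CPM, against 5351 to 5638 CPM in Serum/LIF). At P20 it was lower in EMM (5093 to 5239 CPM, against 5677 to 6135 CPM). In the time course, Serum/LIF replicate 1 stood apart. RNAs without a poly(A) tail summed to 24.7 CPM there, against 2.39 and 5.95 CPM in the other Serum/LIF libraries, and the genes named Hist to 88.2 CPM against 22.3 and 29.8 CPM. Of the 153 members, 128 still met the rule without that library, against 129 without Serum/LIF replicate 2 and 137 without replicate 3. Frat1, Slc6a9, Bicdl2, Car14, Tmie and 1700003E16Rik were among those that did not meet it without replicate 1. In the passage experiment, the same RNAs summed to 104 CPM in P10 EMM replicate 3 (35.7 and 52.5 CPM in the others of its group) and to 160 CPM in P20 2i/LIF replicate 1 (24.9 and 43.5 CPM).

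Galactose enters glycolysis slowly through the Leloir pathway, so cells fed galactose in place of glucose depend more on oxidative phosphorylation for ATP. Glucose is sensed in part by MondoA and ChREBP, paired transcription factors that bind E-box-like sites, and nutrient supply also reaches genes through FoxO factors and through the stress factor ATF4. ESCs in serum are a mixed population that expresses some genes of the post-implantation epiblast, such as the Zic and Sall families, alongside the core pluripotency genes.

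The promoters of the members were searched for the E-box, for a forkhead site, for an AP-1 site and for GC-rich letters. No motif of ATF4 was searched. RefSeq promoters (GRCm38.p6, 250 bases before to 50 bases after the start) were matched for 104 of the 141 protein-coding members, 136 windows in all. Each motif was searched on both strands. The E-box CACGTG stood in 7.35% of the members' windows, in 7.15% of all 32851 windows, and in 10.1% of the 12841 windows of genes of at least 1 CPM. TGTTTAC, the core of a forkhead site, stood in 2.21%, 3.65% and 2.46%. TGACTCA, an AP-1 site, stood in 5.15%, 5.20% and 3.51%. CGCGCG stood in 13.2%, 11.3% and 22.1%, and GGGCGG, the core of a GC box, in 50.7%, 35.7% and 63.7%, and these letters can overlap each other. The median number of CG dinucleotides was 13 per member window, 7 over all windows and 20 over windows of expressed genes. The share of members' windows with an E-box was thus near that of all windows and below that of windows of expressed genes. The sequences of Klf11, Lnx1 and Ampd3 are shown out of the 10 genes with CACGTG (in capitals), because the levels of these 3 in long-term EMM were below those in both other media at P10 and at P20. They lie at chr12:24651121-24651420 on the plus strand (Klf11), chr5:74702854-74703153 on the minus strand (Lnx1) and chr7:110772354-110772653 on the plus strand (Ampd3, 1 of its annotated starts).
Klf11: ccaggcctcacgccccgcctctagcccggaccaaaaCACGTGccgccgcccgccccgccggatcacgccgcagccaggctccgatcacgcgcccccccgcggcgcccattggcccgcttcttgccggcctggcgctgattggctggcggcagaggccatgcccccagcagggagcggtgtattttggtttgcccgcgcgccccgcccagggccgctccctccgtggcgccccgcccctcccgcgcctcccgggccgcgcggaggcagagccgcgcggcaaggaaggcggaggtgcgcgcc
Lnx1: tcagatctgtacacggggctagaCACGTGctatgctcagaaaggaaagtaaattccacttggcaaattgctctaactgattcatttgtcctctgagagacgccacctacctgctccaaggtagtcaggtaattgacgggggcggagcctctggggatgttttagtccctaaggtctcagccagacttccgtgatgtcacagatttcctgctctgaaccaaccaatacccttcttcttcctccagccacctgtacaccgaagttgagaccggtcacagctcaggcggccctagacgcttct
Ampd3: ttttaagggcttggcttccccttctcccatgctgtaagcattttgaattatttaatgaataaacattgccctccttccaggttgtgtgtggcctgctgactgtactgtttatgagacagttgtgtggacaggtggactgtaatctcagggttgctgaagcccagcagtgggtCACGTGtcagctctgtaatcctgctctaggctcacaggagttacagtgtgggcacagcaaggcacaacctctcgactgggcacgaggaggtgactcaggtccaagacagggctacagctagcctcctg

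The members were genes of low level. Their mean in Serum/LIF had a median of 4.42 CPM (1.03 to 2162 CPM), against a median of 27.1 CPM over the 13207 genes, and 80 of 153 (52.3%) lay under 5 CPM against 20.1% of those genes. Of the members, 92.2% were protein-coding, against 93.6% of the 13207 genes, and the median summed exon length was 3792 bases against 4364 bases. Chromosomes 7 and 11 held 18 members each. Of neighbouring members, 16 pairs lay under 200 kb apart, among them Qprt and Spn on chromosome 7 (10005 bases), Zic5 and 2610035F20Rik on chromosome 14, and Prss50 and Tmie on chromosome 9 (1081 bases). Igtp and Irgm2, both GTPases induced by interferon, overlap on the plus strand of chromosome 11, so their reads could have been split either way. In all, 22 members overlap another gene of at least 1 CPM, 17 of them on the opposite strand, including Lnx1, Ampd3, Cd37, Car14, Slc6a9 and Enho, and the time-course counting is not stated to use strand.

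The medians in this paragraph are bounded by the rule. The median log2 difference of the members was −1.01 at 3 h, −1.12 at 9 h and −1.14 at 24 h, against −0.08, −0.04 and −0.02 over the 13207 genes, and the median level was 41.7%, 38.9% and 35.4% of Serum/LIF. At or below 25% of Serum/LIF were 10 members at 3 h, 17 at 9 h and 29 at 24 h. The lowest of the 3 times was 24 h for 74 members, 9 h for 41 and 3 h for 38. Against 3 h, 26 members were at least 0.5 lower (log2) at 24 h, and 2 were at least 0.5 higher. In 147 members the 3 EMM libraries all lay below the 3 Serum/LIF libraries at 3 h, and the same number did so at 9 h and at 24 h. Among all 13207 genes 41.0%, 33.9% and 33.9% did so, and since the rule used these values, nothing is read from the difference. Just inside the limit of −0.8 lay Rpph1 (−0.801 at its weakest time), Enho (−0.801) and Col17a1 (−0.803), and just outside it St6galnac4 (−0.797), Baiap2l2 (−0.796) and Gm10687 (−0.796).

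**Figure D1:**
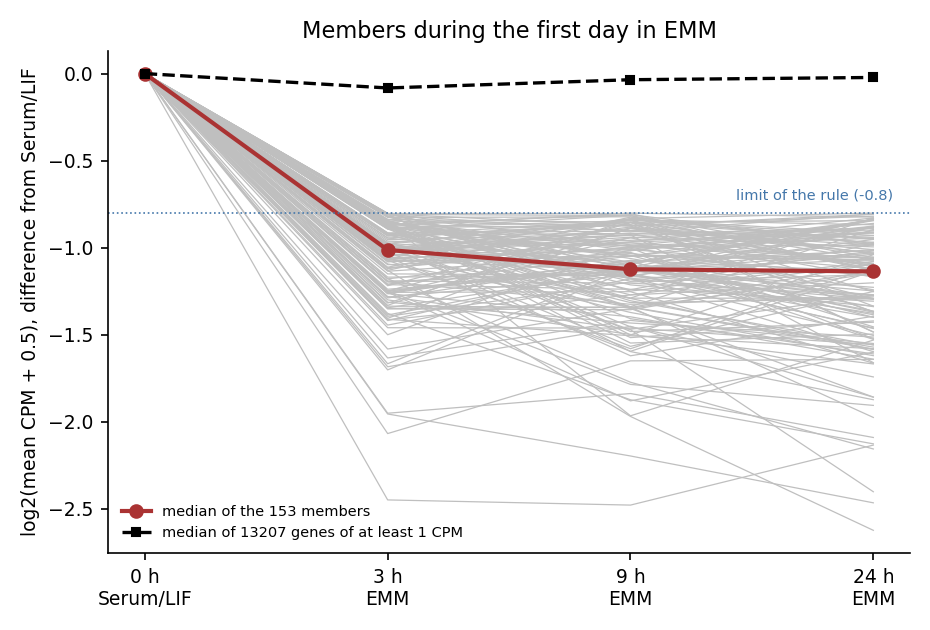
Time course of the 153 members (grey lines, 1 per gene), their median (red) and the median of 13207 genes of at least 1 CPM (dashed). The vertical axis is log2(mean CPM + 0.5) minus its value in Serum/LIF, and the horizontal axis the hours in EMM. The members' median is −1.01 at 3 h and −1.14 at 24 h, and the dotted line is the limit of the rule.

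Transcription factors and chromatin proteins numbered 15. Mycn, an oncogenic Myc family factor (chr12:12936093-12941914, minus strand), had 290, 303 and 290 CPM in the Serum/LIF libraries, 139, 144 and 134 CPM at 3 h, 148, 143 and 149 CPM at 9 h, and 106, 102 and 99.5 CPM at 24 h. All 9 EMM libraries lay below the 3 Serum/LIF libraries, the 3 h and 9 h libraries overlapped, and the level at 24 h was 34.7% of Serum/LIF. Mycl, a further Myc family factor, had 16.8, 19.1 and 16.5 CPM in Serum/LIF and between 4.87 and 6.73 CPM in all 9 EMM libraries. Klf11 (chr12:24651274-24662789, plus strand) is a zinc finger factor of the Krüppel-like family whose E-box promoter is shown above. It had 43.6, 48.7 and 48.6 CPM in Serum/LIF, 14.8, 14.3 and 15.3 CPM at 3 h, 17.0, 17.2 and 17.6 CPM at 9 h, and 15.4, 15.5 and 16.2 CPM at 24 h. Vrtn, which encodes the vertebra-number factor vertnin, had 10.6, 11.7 and 11.2 CPM in Serum/LIF and 2.01 to 2.73 CPM at 24 h. Sall2 and Zic5, zinc finger factors of the epiblast list, were at 32.6% and 34.0% of Serum/LIF at 24 h, and Irf8, an interferon regulatory factor, at 30.1%. H1f0, a linker histone made outside S phase as well, had 114, 119 and 98.3 CPM in Serum/LIF and was lowest at 9 h, with 38.5, 39.2 and 32.0 CPM.

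Ligands, receptors and their adaptors numbered 27 members. Dll3, a divergent ligand of the Notch pathway (chr7:28293553-28302238, minus strand), went from 7.73, 9.31 and 8.78 CPM in Serum/LIF to 3.32, 2.97 and 3.71 CPM at 3 h, 1.94, 1.91 and 2.58 CPM at 9 h and 1.65, 2.41 and 1.73 CPM at 24 h. Wnt8a (a Wnt ligand), Fzd9 (a Frizzled receptor) and Frat1 (a protein that binds the kinase GSK3) were at 26.7%, 35.1% and 51.4% of Serum/LIF at 24 h. Efna1, an ephrin that binds Eph receptors on neighbouring cells, was at 18.5% at 3 h and 28.1% at 24 h. Hfe2, which encodes the BMP co-receptor hemojuvelin, was at 19.4% and 15.3%. Grb7, an adaptor of receptor tyrosine kinases, had 103, 109 and 98.3 CPM in Serum/LIF and between 39.3 and 47.5 CPM in the EMM libraries. Fgd5, an exchange factor for the GTPase Cdc42, was at 40.5% at 3 h and 25.4% at 9 h, and Sema4d, a membrane semaphorin, was at 53.7% at 3 h and 40.8% at 24 h. Chrm4, a muscarinic acetylcholine receptor, was at 28.1% at 24 h.

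Metabolic enzymes and nutrient carriers numbered 23, and some of them were lower at each later time. Chac1, which degrades glutathione and is a known target of ATF4, had 35.5, 35 and 31.0 CPM in Serum/LIF, 17.5, 16.1 and 17.0 CPM at 3 h, 10.8, 13.2 and 11.7 CPM at 9 h, and 6.27, 5.82 and 5.93 CPM at 24 h. Pck2, the mitochondrial enzyme that makes phosphoenolpyruvate from oxaloacetate, had 62.9, 59.5 and 59.8 CPM in Serum/LIF, 34.6, 32.3 and 32.1 CPM at 3 h, and 20.4, 19.5 and 20.4 CPM at 24 h. Each later group lay below the earlier ones in both genes. Acot1, a cytosolic acyl-CoA thioesterase, was at 53.0% at 3 h and 34.9% at 24 h. Soat2 (cholesterol esterification) was at 17.8% at 24 h and Cyp39a1 (hydroxylation of an oxysterol) at 41.5%. Slc6a9, a glycine transporter, was at 48.7%. Oaz2, an antizyme that limits polyamine synthesis, was at 56.6%, 53.9% and 56.5% at the 3 times.

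Spn, which encodes the leukocyte sialoglycoprotein CD43 (chr7:127132232-127137823, minus strand), was the member with the largest difference at 24 h on the scale of the rule, which adds 0.5 to the mean CPM. As a share of Serum/LIF it was at 12.1%, and Gm5091 (1.05%), Bcas1 (9.39%) and Gm24270 (10.1%) were lower. Spn had 10.5, 10.6 and 9.43 CPM in Serum/LIF, 5.04, 4.12 and 3.97 CPM at 3 h, 2.09, 2.61 and 1.98 CPM at 9 h, and 1.22, 1.35 and 1.13 CPM at 24 h. Immune and antigen presentation genes numbered 16, and the interferon-inducible GTPases Irgm2 and Igtp were at 33.8% and 22.6% of Serum/LIF at 24 h. Apobec1, a cytidine deaminase, was at 42.5%. Bmf, a pro-apoptotic BH3-only protein and known FoxO target, was lowest at 3 h (7.61, 7.0 and 7.70 CPM, against 25.5, 26.2 and 24.2 CPM in Serum/LIF) and higher at 24 h (11.5, 9.48 and 10.6 CPM). The axonemal genes Ccdc114 and Dnah2 and the dynein docking gene Ttc25 were at 31.7%, 26.6% and 32.4% at 24 h. Ccdc160, a coiled-coil gene on the X chromosome, was at 20.0% at 3 h, 28.4% at 9 h and 28.6% at 24 h. Ankrd34a was at 24.7% at 24 h, Lingo3 at 30.2%, Meioc, a meiotic regulator, at 32.0%, and Cdh3, which encodes P-cadherin, at 35.7%.

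**Figure D2:**
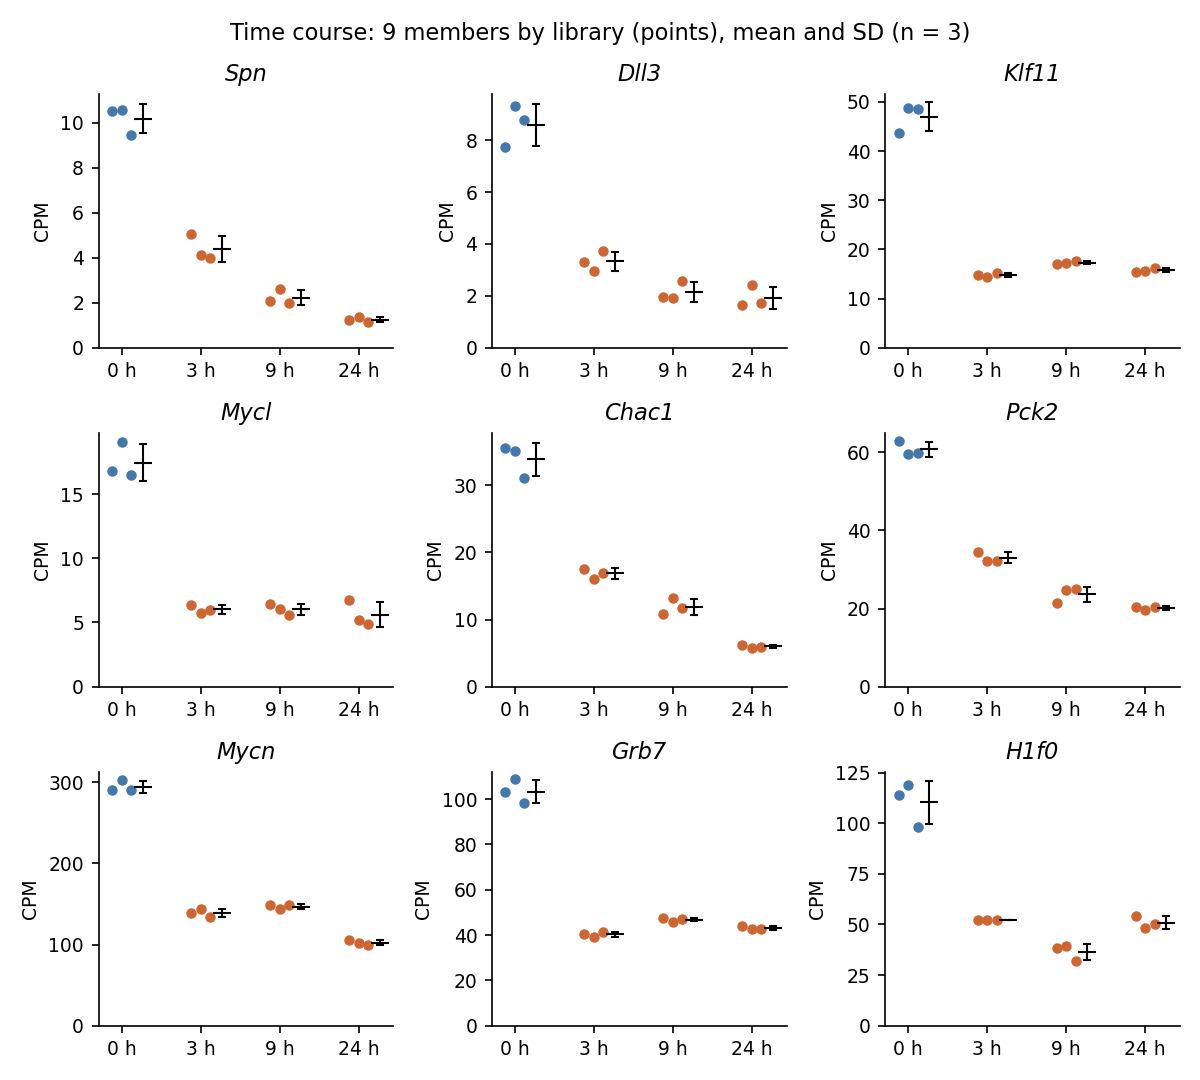
CPM of 9 members in each of the 12 time-course libraries (points, blue for Serum/LIF and orange for EMM), with the mean and SD of 3 libraries in black, against hours in EMM. In each panel every EMM library lies below every Serum/LIF library, and Spn, Chac1 and Pck2 are lowest at 24 h whereas Klf11 and Mycl are level from 3 h.

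The libraries of 7 members overlapped at 1 or more times, and 6 of them were among the 25 members that did not meet the rule without Serum/LIF replicate 1. The 7 are Rn7sk, Gm24270, n-R5-8s1, Gm26917, Scarna2 and Rpph1, annotated as classes of non-coding RNA, and Gm37194, annotated only as TEC, a class not yet settled by experiment. Rn7sk, the 7SK RNA, had 14.3 CPM in Serum/LIF replicate 1 but 0.819 and 1.35 CPM in the other Serum/LIF libraries, against 0.431 to 0.888 CPM in the 9 EMM libraries. Gm26917, the member of highest level, had 4683 CPM in replicate 1, and 1017 and 784 CPM in the other replicates, against 576 to 1121 CPM in EMM. These 7 members summed to 4851 CPM in replicate 1, 843 to 1037 CPM in the other Serum/LIF libraries and 590 to 1142 CPM in EMM. The one that met the rule without replicate 1 was n-R5-8s1, a 5.8S ribosomal RNA with 110, 15 and 50.3 CPM in Serum/LIF. The other 146 members did not overlap at any time.

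The members were then compared in long-term EMM, in libraries that had not been used to choose them. Of the 153 members, 152 were matched in the table of these libraries (Gm26917 was not), and 149 passed the filter on low counts. Gm24270, 2610035F20Rik and 1700003E16Rik did not. At P10, 96 members were lower in EMM and 1 was higher, at an adjusted p under 0.01 (edgeR, over 16054 genes), where 18.7% of all tested genes were lower and 18.7% higher. With a log2 fold change below −1 as well, 88 members were lower, against 10.5% of all tested genes. At P20, 72 members were lower and 3 higher, against 12.5% and 13.6% of all tested genes, and 55 were lower with the fold change as well, against 6.19%. The median log2 fold change of the members was −1.33 at P10 (quartiles −2.21 and −0.69) and −0.83 at P20 (quartiles −1.43 and −0.43), and that of all tested genes was 0.01 and 0.00. All 3 EMM libraries lay below all 3 Serum/LIF libraries for 117 members at P10 and 115 at P20, against 29.4% and 29.5% of all tested genes. Without P10 EMM replicate 3, 88 members were lower at P10. With only the groups compared in the fit, 93 members were lower at P10 and 89 at P20. The gap between the passages in these counts thus depends on the fit, and the share of all genes was not counted under that fit. The 3 higher at P20 became 1 to 2 with single libraries left out, and 4 with only the groups compared. A member could pass the filter through its Serum/LIF libraries alone, so that these counts describe the 149 that passed.

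Markers of other cell types moved with the medium in the same libraries, in both directions. The 10 fibroblast markers summed to 158 to 185 CPM in P10 Serum/LIF and 27.6 to 31.6 CPM in P10 EMM, and to 241 to 473 CPM and 17.9 to 22.0 CPM at P20, with 5 to 10 of the 10 above 0. Without P20 Serum/LIF replicate 3, the library at 473 CPM, 58 members were lower in EMM at P20. The 10 trophectoderm markers summed to 598 to 691 CPM and 86.4 to 97.0 CPM at P10, and to 349 to 465 CPM and 127 to 132 CPM at P20, with 9 to 10 above 0. In 2i/LIF fibroblast markers summed to 6.14 to 8.74 CPM at P10 and 8.95 to 10.4 CPM at P20, and trophectoderm markers to 111 to 120 CPM and 216 to 221 CPM. The 10 primitive endoderm markers were instead higher in EMM, with 139 to 155 CPM in P10 Serum/LIF against 311 to 369 CPM in P10 EMM, and at P20 118 to 170 CPM against 161 to 193 CPM, which overlap (9 to 10 above 0). They had 200 to 267 CPM in P10 2i/LIF and 138 to 164 CPM in P20 2i/LIF. The 10 neural markers had 460 to 491 CPM in P10 Serum/LIF, 420 to 460 CPM in P10 EMM and 174 to 295 CPM in P10 2i/LIF. In the time course fibroblast markers summed to 71.1 to 74.6 CPM in Serum/LIF and 52.1 to 60.7 CPM at 24 h, trophectoderm markers to 235 to 247 CPM and 391 to 403 CPM, and primitive endoderm markers to 106 to 123 CPM and 158 to 181 CPM. Their part in the results was not tested, and in bulk RNA fewer cells of a type cannot be told apart from less RNA per cell.

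Both passages shared 54 members that were lower in EMM. Of all tested genes, 6.95% were. A further 40 members were lower at P10 and not called at P20 (10.9% of all tested genes), 17 were the reverse (4.95%), and 34 were called at neither (52.7%). These joint calls are from the fit of all groups, and more members were lower at P20 with only the groups compared. Sall2, Trmt9b and Cd37 were called in opposite directions.

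**Figure D3:**
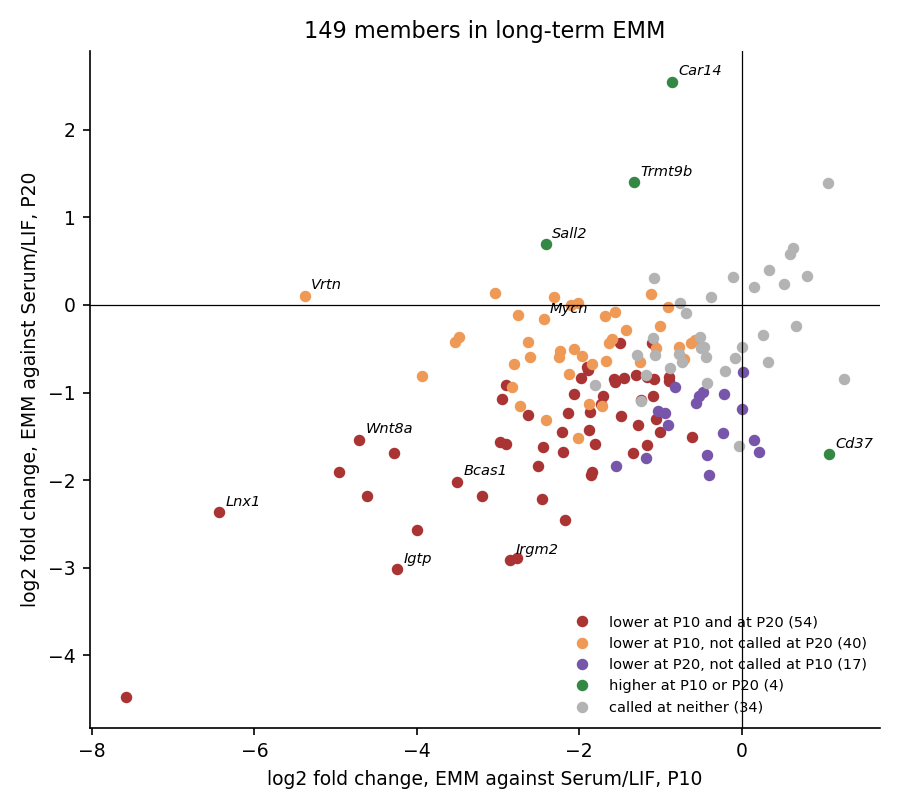
Log2 fold change of EMM against Serum/LIF at P10 (horizontal) and at P20 (vertical) for the 149 members tested, 1 point per member, coloured by the call at an adjusted p under 0.01. Red points (54) are lower at both passages, orange points (40) at P10 alone, purple points (17) at P20 alone, green points (4) are higher at 1 passage, and grey points (34) are called at neither.

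At P20 the largest fall was that of Gm5091, a lincRNA gene of low level, with 2.56, 2.24 and 1.68 TMM-scaled CPM in Serum/LIF and 0.0596, 0.107 and 0.0929 in EMM (log2 fold change −4.47 ± 0.54 SE). At P10 it had no count in EMM and was at least 18.4-fold lower, taking 3 counts over the group as the limit. Genes of the interferon response and of antigen presentation were among the next. Igtp, an interferon-inducible GTPase, had 4.76, 4.0 and 2.22 TMM-scaled CPM in P10 Serum/LIF and 0.257, 0.200 and 0 in P10 EMM (−4.24 ± 0.68, adjusted p = 4.5e-05). At P20 it had 3.43, 4.16 and 3.93 against 0.596, 0.502 and 0.325 (−3.01 ± 0.53, adjusted p = 0.00022). Irgm2, whose reads may be shared with it, fell by 2.86 and 2.92 on the log2 scale (adjusted p = 3.4e-06 and 1.6e-06). Tap2, a subunit of the peptide transporter that feeds MHC class I, had 16.4, 14.6 and 10.3 CPM in P10 Serum/LIF and 1.03, 0.798 and 0.587 in P10 EMM (−3.99 ± 0.39, adjusted p = 1.4e-07), and fell by 2.57 at P20. Helz2, a helicase-like coactivator, fell by 2.18 and 2.45, and Irf8 by 2.14 and 1.23 (adjusted p = 0.00021 and 0.0097), the second of which was lost with DESeq2 and without single libraries. Of the 16 immune members, 10 were lower and 1 (Cd37) higher at P10, and 13 were lower at P20, against 18.7% and 12.5% of all tested genes lower. The role groups were set after the values were seen. Spn fell by 1.33 at P10 and 1.69 at P20, and Apobec1 by 1.85 and 1.94.

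Several transcription factors were lower at P10 but not at P20. Of the 15 in the group, 12 were lower in EMM at P10 (18.7% of all tested genes), and 7 were lower (12.5%) and 1 higher at P20. Mycn had 263, 239 and 243 CPM in P10 Serum/LIF and 51.0, 43.2 and 42.1 CPM in P10 EMM (−2.44 ± 0.11, adjusted p = 8.2e-12). At P20 it had 198, 179 and 181 CPM in Serum/LIF and 166, 165 and 167 CPM in EMM (−0.16 ± 0.10, adjusted p = 0.22), so the groups stood apart but the difference was not called. Vrtn had 17.8, 14.4 and 13.1 CPM in P10 Serum/LIF and 0.412, 0.299 and 0.293 CPM in P10 EMM (−5.38 ± 0.24, adjusted p = 8.1e-12), whereas at P20 the groups overlapped, with 8.68, 8.10 and 7.45 CPM against 7.56, 8.67 and 9.85 CPM. Zic5 fell by 2.32 at P10 and had a log2 fold change of 0.09 at P20 (adjusted p = 0.64). Sall2 fell by 2.41 at P10 and rose by 0.69 at P20 (adjusted p = 0.0083, a call that was lost without any 1 of the 6 libraries compared), with 9.82, 10.2 and 10.7 CPM in P20 Serum/LIF and 16.4, 15.9 and 17.5 CPM in P20 EMM. Klf11, Mycl and H1f0, by contrast, were lower at both. Klf11 fell by 1.73 and 1.13 and Mycl by 1.86 and 1.22, and H1f0 by 1.28 and 1.37 (adjusted p = 3.6e-06 and 2.5e-06).

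Of the 27 signalling members, 18 were lower at P10 and 12 at P20, against 18.7% and 12.5% of all tested genes. Lnx1, a ubiquitin ligase of the Notch regulator Numb, had 2 counts in the 3 P10 EMM libraries together. Its pooled level in P10 Serum/LIF was 98.6 times that in EMM, with a 95% Poisson interval of 27.3 to 814 that covers counting error only. At P20 it fell by 2.36. Wnt8a fell by 4.71 and 1.54 (adjusted p = 1.3e-06 and 0.0046, the second lost without any 1 of the 6 libraries compared), and Dll3 by 2.63 at P10, where its libraries had 7.84, 7.31 and 9.70 CPM in Serum/LIF and 1.80, 0.798 and 1.17 CPM in EMM. At P20 Dll3 had 4.64, 2.97 and 4.49 CPM against 2.92, 3.55 and 2.46 CPM, which overlap (−0.42 ± 0.32, adjusted p = 0.33). Grb7 fell by 1.90 and 0.71, Sema4d by 1.11 and 0.44, Hfe2 by 2.2 and 1.67, and Efna1 by 2.95 and 1.07. Fzd9 and Chrm4 were called at P20 alone (−1.24 and −1.38), and Frat1 at neither (−0.43 and −0.89).

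Among metabolic members, 13 of 23 were lower at P10, and 10 were lower and 1 (Car14) higher at P20, against 18.7% and 12.5% of all tested genes lower. Chac1 had 13.5, 14.8 and 13.3 CPM in P10 Serum/LIF against 2.42, 2.40 and 2.93 CPM in EMM (−2.45 ± 0.24, adjusted p = 1.7e-07) and fell by 1.62 at P20. Pck2 had 55.9, 70.8 and 55.2 CPM against 45.8, 47.9 and 63.7 CPM at P10, which overlap (−0.22 ± 0.15, adjusted p = 0.23), and 55.8, 55.2 and 57.0 CPM against 27.5, 25 and 30.4 CPM at P20 (−1.02 ± 0.15, adjusted p = 3.2e-05). Mfsd2a, a lipid transporter, fell by 4.95 and 1.91. Car14, a membrane carbonic anhydrase, had 5.37, 4.83 and 5.19 CPM in P10 Serum/LIF and 2.06, 4.29 and 2.2 CPM in EMM (−0.86, adjusted p = 0.022), but 1.75, 1.92 and 1.12 CPM in P20 Serum/LIF and 8.70, 8.63 and 11.4 CPM in EMM, a rise of 2.55 ± 0.30 (adjusted p = 2.8e-06). Oaz2 fell by 0.89 and 0.82, and Cyp39a1 by 0.90 and 0.87.

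The other members of the named set were divided. Bicdl2, a dynein adaptor relative, fell by 4.28 and 1.69, and Cntnap2, a neurexin family protein, by 2.76 and 2.89. Ccdc160 fell by 2.64 and 1.26, Ccdc114 by 1.31 and 0.80, and Fgd5 by 1.57 and 0.84. Ttc25 fell by 1.85 and 1.90. Some calls near the limit did not hold. Those of Efna1 and Meioc at P20 were lost without any 1 of the 6 libraries compared, and those of Fgd5, Sema4d, Chrm4, Fzd9 and Bicdl2 at P20, Dnah2 and Lingo3 at P10 and Cyp39a1 at both passages were lost without at least 1 of them. Bmf was called at neither passage, with 21.9, 25.6 and 25.6 CPM in P10 Serum/LIF and 27.2, 22.1 and 17.2 CPM in P10 EMM. Of the 7 members whose time-course libraries overlapped (Rn7sk among them), the 5 tested had adjusted p-values from 0.012 to 0.63 at P10 and from 0.089 to 0.675 at P20, and the log2 fold changes of Rn7sk were 0.80 and 0.34.

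The EMM effect differed between the passages for 37 members (interaction, adjusted p under 0.01), 30 with a higher and 7 with a lower log2 fold change at P20, against 8.28% and 6.43% of all tested genes. The 7 are 4.70% of the members tested, below the share of all genes, and their number was 4 without P10 EMM replicate 3 or P20 Serum/LIF replicate 3 and 3 without P20 EMM replicate 3. The largest differences toward higher values at P20 were those of Vrtn (5.49 ± 0.30, adjusted p = 5e-10), Lnx1 (4.07 ± 0.78), Car14 (3.41 ± 0.42), Magel2 (3.17 ± 0.53) and Wnt8a (3.17 ± 0.67). Those toward lower values were Cd37 (−2.77 ± 0.40, adjusted p = 6.3e-05), Rpph1 (−2.10), Myo1g (−1.88 ± 0.43), Pik3c2b (−1.69 ± 0.29) and Parp14 (−1.19 ± 0.27). Rpph1 had 2.78, 2.20 and 4.84 CPM in P10 EMM, the highest in replicate 3, whose RNAs without a poly(A) tail stood apart, and without that library its difference was −1.77 ± 0.54 and not called (adjusted p = 0.026). Leaving out single libraries also lost the calls of Rpph1 in 8 further cases of 12, Parp14 in 4 and Myo1g in 3. The Serum/LIF reference moved too. Cd37, a tetraspanin, had 1.54, 0.826 and 1.56 CPM in P10 Serum/LIF and 6.39, 7.96 and 12.6 CPM in P20 Serum/LIF, but 2.49 to 3.04 CPM in all 6 EMM libraries, so that it rose in EMM at P10 (1.07 ± 0.31, adjusted p = 0.0077, a call that was lost without any 1 of the 6 libraries compared) and fell at P20 (−1.70 ± 0.26, adjusted p = 5.6e-05). Myo1g, an unconventional myosin, likewise had 2.22 to 3.95 CPM in P10 and 9.21 to 10.6 CPM in P20 Serum/LIF.

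**Figure D4:**
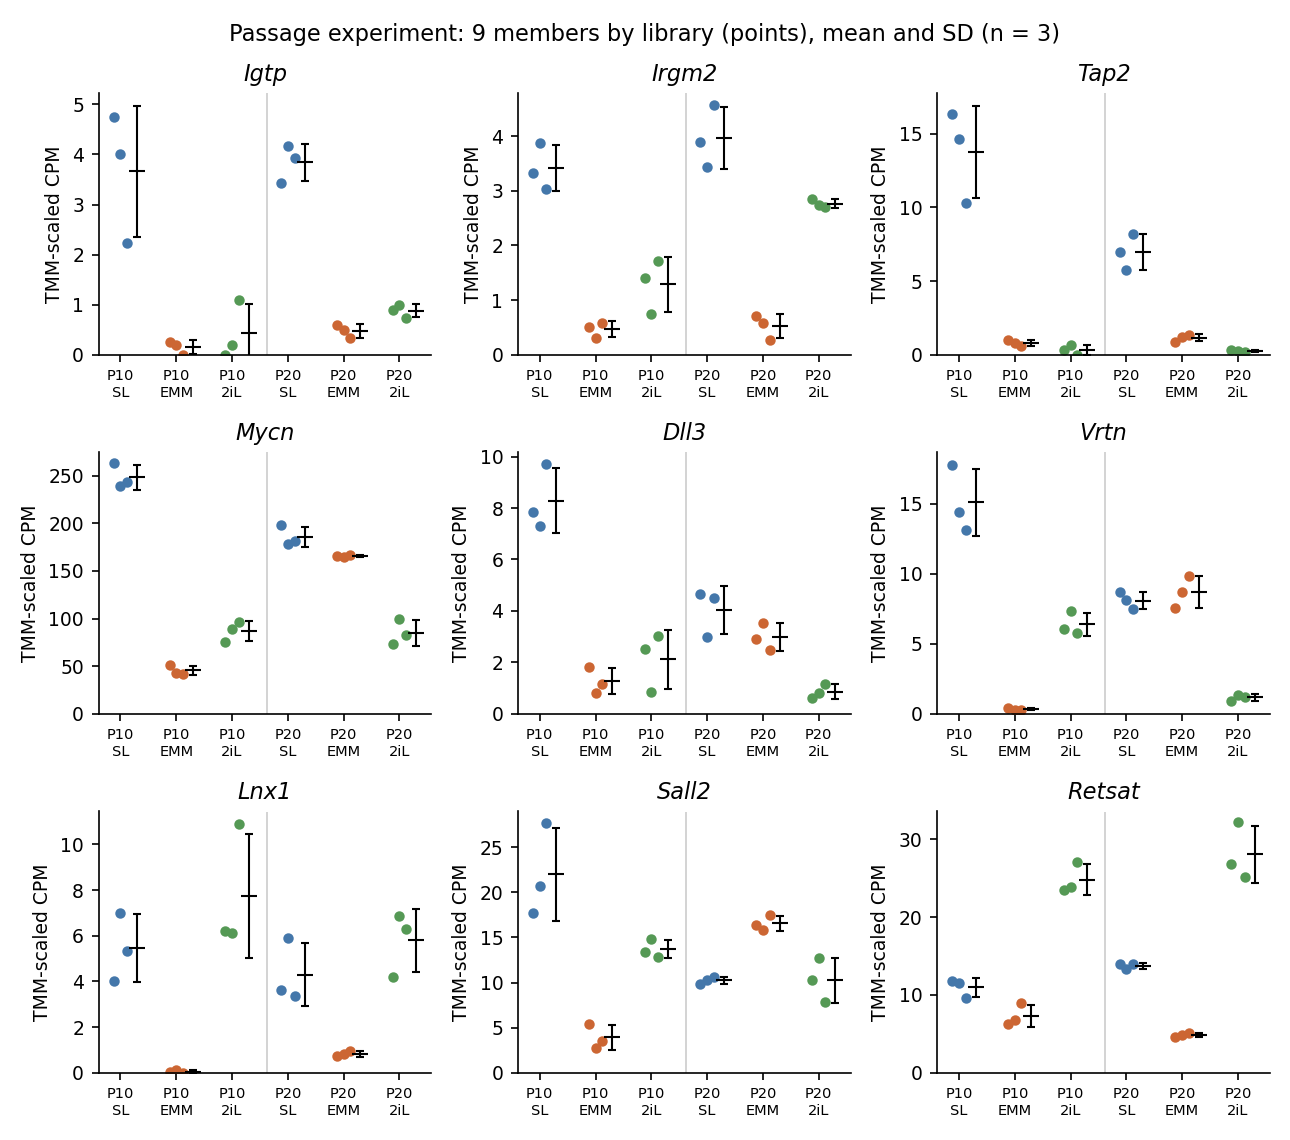
TMM-scaled CPM of 9 members in each of the 18 passage libraries (points, blue for Serum/LIF, orange for EMM, green for 2i/LIF), with the mean and SD of 3 libraries in black. Igtp, Irgm2 and Tap2 are low in EMM at both passages, Mycn, Dll3 and Vrtn are far below Serum/LIF in EMM at P10 and near it at P20, Sall2 is low at P10 and high at P20, and Retsat is low in EMM and high in 2i/LIF.

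Most members were also lower in 2i/LIF. Against Serum/LIF, 91 members were lower and 13 higher at P10 (25.6% and 26.4% of all tested genes), and 88 lower and 11 higher at P20 (23.2% and 21.0%). The EMM and 2i/LIF comparisons share their Serum/LIF libraries. Tap2 had 0.302, 0.651 and 0 CPM in P10 2i/LIF, and Spn fell by 4.53 and 4.88 in 2i/LIF. Wnt8a had no count in P20 2i/LIF and was at least 38.8-fold lower there than in Serum/LIF, by the same limit. At P20, genes of chromosomes 6 and 8 had a raised median in 2i/LIF (log2 0.33 and 0.45 against Serum/LIF). Of the 134 members tested on other chromosomes, 83 were lower and 7 higher, against 24.0% and 18.5% of all genes tested there, a count chosen after the data were seen. Without P20 2i/LIF replicate 1, 84 of all the members tested were lower and 9 higher.

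**Figure D5:**
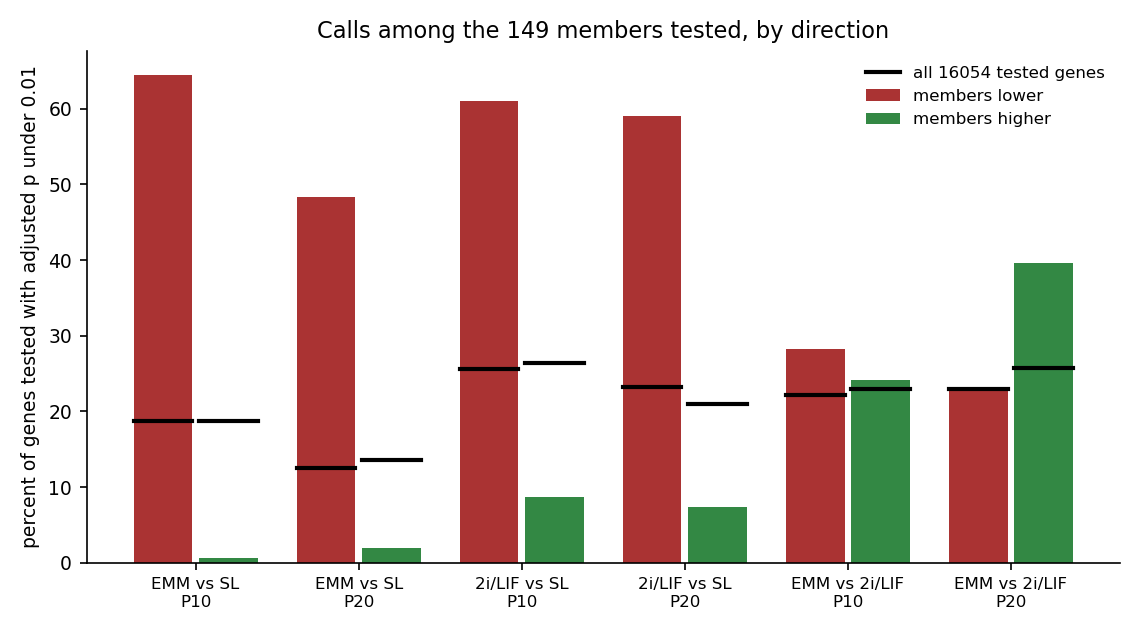
Percent of the 149 members tested that were called lower (red) or higher (green) at an adjusted p under 0.01 in each of 6 passage comparisons, with the percent of all 16054 tested genes as a black line. Lower calls exceed that line in both media against Serum/LIF, and EMM against 2i/LIF is divided.

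The direct comparison of EMM with 2i/LIF divided the members. At P10, 42 were lower in EMM and 36 higher, against 22.2% and 22.9% of all tested genes. The 36 are 24.2% of the members tested, near the share of all genes, and became 21 when only the 2 groups were fitted. At P20, 34 were lower and 59 higher, against 22.9% and 25.7%, and the share of lower calls was near that of all genes. The comparisons with 2i/LIF and with Serum/LIF share the EMM libraries, so levels in the 3 media are given side by side. Mycl had 27.2, 26.1 and 31.7 CPM in P10 2i/LIF, within the range of Serum/LIF or just above it, against 7.41, 7.19 and 8.51 CPM in EMM. Klf11 had 31.3, 22.2 and 23.1 CPM in P10 2i/LIF, between EMM and Serum/LIF. Some members were lowest in EMM and highest in 2i/LIF. Retsat, which reduces retinol, had 11.8, 11.6 and 9.56 CPM in P10 Serum/LIF, 6.28, 6.79 and 8.95 CPM in EMM and 23.5, 23.8 and 27.1 CPM in 2i/LIF. Arhgap30 had 21.7, 17.5 and 18.1 CPM, 3.55, 3.39 and 2.93 CPM, and 44.7 ± 6.94 CPM (SD, n = 3) in the same order.

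Families and pathways were followed as lists, each of which holds at least 1 member except the Ypel family. Over all 14 lists, 175 tested genes were not members, and 61 were lower and 19 higher at 3 h, 76 and 28 at 9 h, and 74 and 29 at 24 h. Over all 16049 genes tested, 18.2% were lower and 16.3% higher at 3 h, 19.7% and 18.5% at 9 h, and 22.2% and 21.8% at 24 h. Genes that met the rule are not among the 175, other than Arrdc4, which met its values and was left out by name. The lists were chosen with earlier results of these data known, so the direction of any bias in these shares is not known.

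The counts that follow for single lists include their members, whose direction the rule fixed. Each member in a list was among its lower genes at all 3 times. Of 11 glucose-responsive genes, 6 were lower at 3 h, 8 at 9 h and 9 at 24 h, and none was higher. Among the lower genes at each time were the member Klf11 and Arrdc4, which met the values of the rule. Mlxipl, which encodes ChREBP itself, fell by 0.60, 1.24 and 1.08. Of the 19 epiblast factors, which include Sall2 and Zic5, 11, 14 and 14 were lower at the 3 times, and 1 was higher at each. Without these 2 members, 9, 12 and 12 were lower. Zic2, the nearest relative of Zic5 in the list, fell by 1.19, 0.73 and 1.69, Otx2 by 1.06, 0.74 and 1.31, and the methyltransferase Dnmt3b by 0.33, 1.38 and 1.47. Of 19 interferon-inducible genes, 8, 14 and 12 were lower and 1, 1 and 2 higher. Without the 4 members in this list, 4, 10 and 8 were lower. Irf1 fell by 0.43 at 3 h, while Xaf1 rose by 1.04, 1.58 and 2.10.

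The lists of the signalling members held genes of both directions. Of 16 Notch genes, among them the member Dll3, 6, 8 and 8 were lower and 2, 3 and 2 higher. Jag1 fell by 0.54, 0.70 and 1.07, whereas Dll1, the canonical ligand, rose by 0.81 at 3 h and fell by 0.65 at 24 h. Of 25 Wnt genes, 10, 7 and 7 were lower (7, 4 and 4 without the 3 members) and 5, 8 and 7 higher. Frat2 fell by 1.39, 0.87 and 0.65, while Wnt4 rose by 0.58, 0.60 and 1.11. Of 8 ephrins, 2 were lower at each time (Efna1 and Efna2) and 4, 2 and 3 were higher, among which Efna5 rose by 0.38, 0.42 and 0.83. Of 16 FoxO targets, 7 were lower and 2 higher at 3 h, 5 and 6 at 9 h, and 3 and 6 at 24 h. Insr fell by 0.69, 0.44 and 0.28, and Irs2 rose by 0.25, 0.28 and 0.63. Of 20 amino acid transporters, 7, 13 and 14 were lower and 2, 1 and 1 higher, and Slc1a4 fell by 1.30 at 3 h. Slc7a5 fell by 0.36 at 9 h and 0.71 at 24 h. Of 28 cilium and axoneme genes, 9, 12 and 11 were lower (6, 9 and 8 without the 3 members) and 0, 0 and 1 higher. Of 10 sterol hydroxylation and transfer genes, 6, 5 and 5 were lower (4, 3 and 3 without the 2 members) and 0, 2 and 1 higher. Of 4 AID and APOBEC genes, 3 were lower at each time (Apobec3 fell by 0.31, 0.31 and 0.36) and 0, 0 and 1 higher. Of 8 acetylcholine receptors, 3, 2 and 2 were lower and 0, 1 and 1 higher. Of 8 RGM and iron genes, 2, 3 and 4 were lower and 1, 2 and 2 higher. Of 5 Ypel genes, none of them a member, 3, 2 and 2 were lower and 1 was higher at each time.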

How the data were processed

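RNA was measured in 12 time-course and 18 passage libraries, with 3 per group, described by the study as independent experiments. The authors deposited raw counts per gene for the time course, aligned with STAR to mm10 and counted per gene (HTSeq per the study's methods, featureCounts per the submitters' processing notes). For the passages the authors deposited estimated counts per gene (STAR and Salmon per those notes), of which 9.98% were not whole and which were rounded here. The annotation is not given in the sources used here, and places of genes are from GENCODE M21 (GRCm38). The time-course rule used CPM of column sums. Tests were edgeR quasi-likelihood tests (4.0.16, R 4.3.3, TMM scaling, filterByExpr), with all groups of an experiment in 1 model and p-values adjusted by Benjamini-Hochberg over all genes tested. Genes with an adjusted p under 0.01 were called. Fold changes are log2 with SE. Scripts were tested on simulated data. Total counts limit precision most for members of low level, and intervals and limits for counts of 0 cover counting error only.

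Members and lists were chosen with earlier results of these data known, and role groups after the values were seen. Named among members were the 15 with the largest median difference out of those of at least 5 CPM in Serum/LIF. The 10 of highest level and those in a pathway list were named too. So were the 5 largest called changes each way per passage. These were beyond 1 on the log2 scale, alike in every pair of libraries and with a mean of at least 50 normalized counts in 1 group. The 5 largest differences each way between passages and the 3 genes on each side of the limit complete the set. Gm5091, Bcas1, Retsat, Arhgap30, Trmt9b, Ampd3, Qprt, Prss50, Tmie, 2610035F20Rik and 1700003E16Rik were named after their values were seen. Alternatives were other scalings (DESeq2 1.42.0 size factors, library totals), other filters, the DESeq2 test, a replicate block, the compared groups alone, and each library left out.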

Additional observations from a re-analysis of the deposited data

Results flagged for a closer look

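For the named members below, the effect of EMM differed between P10 and P20 by the interaction test of edgeR (adjusted p under 0.01). Each value is the log2 fold change of EMM against Serum/LIF at P20 minus that at P10. The effect was higher at P20 for Vrtn (5.49), Lnx1 (4.07), Car14 (3.41), Magel2 (3.17), Wnt8a (3.17), Sall2 (3.11), Mfsd2a (3.05), Bicdl2 (2.59), Zic5 (2.41), Mycn (2.28), Dll3 (2.21), Cdh3 (2.11), Acot1 (2.03), Ccdc160 (1.38), Grb7 (1.19), Sema4d (0.67) and Mycl (0.64). It was lower at P20 for Cd37 (−2.77), Rpph1 (−2.10), Myo1g (−1.88), Pik3c2b (−1.69), Parp14 (−1.19) and Pck2 (−0.80). The Lnx1 value rests on 2 counts in P10 EMM and depends on the prior count of the fit. With each of the 12 Serum/LIF and EMM libraries left out in turn, the call was lost in 10 cases for Mycl and Pck2, 9 for Rpph1, 7 for Sema4d, 5 for Bicdl2, 4 for Parp14, 3 for Myo1g and 1 for Dll3 and Mfsd2a. Rpph1 was −1.77 (adjusted p = 0.026) without P10 EMM replicate 3, the library of that group with the highest sum of RNAs without a poly(A) tail.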

How the results depend on the processing

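The number of members was 124 with TMM-scaled CPM, 51 with a limit of −1, 73 with a floor of 5 CPM, 83 with log2(M+1) and 146 to 162 with single libraries left out. Requiring at least 10 counts in every library, which tested 56 members and 11166 genes (20.8% of them lower and 19.6% higher for EMM at P10, 15.2% each at P20, 27.2% and 27.5% for 2i/LIF at P10, 22% and 21.7% at P20, 24.5% and 24.6% for EMM against 2i/LIF at P10, 25.5% and 25.2% at P20, and 7.79% and 9.66% for the difference between passages), left 39 lower and 0 higher members for EMM against Serum/LIF at P10, 35 and 1 at P20, 31 and 8 for 2i/LIF at P10, 29 and 6 at P20, 23 and 11 for EMM against 2i/LIF at P10, 17 and 20 at P20, and 4 and 14 for the difference between passages. The single higher call at P10 EMM (Cd37) became 0 with library totals, with the replicate block and with only the groups compared, 2 without the filter and with DESeq2, and 3 at an adjusted p under 0.05 (24.9% of all genes). At that limit 19 members were higher in P20 2i/LIF (27.1% of all genes) and 47 for the difference between passages (13.8%). At the limit of 0.01, 7 were higher in P20 2i/LIF without chromosomes 6 and 8. With only the groups compared, 93 members were lower for EMM against Serum/LIF at P10 and 89 at P20. The difference between passages then had 40 higher and 8 lower members, and 21 members were above 2i/LIF in EMM at P10. The cause of these shifts was not tested. Leaving out single libraries gave 0 to 1 higher at P10 EMM, 1 to 2 at P20 EMM and 3 to 7 lower for the difference between passages (4 without P10 EMM replicate 3 or P20 Serum/LIF replicate 3, 3 without P20 EMM replicate 3), against 82 to 93 and 52 to 69 lower for EMM at P10 and P20. Same-numbered libraries had correlated deviations of −0.13 to 0.21 in the time course and −0.21 to 0.30 in the passages, and no 2 groups compared here had all 3 pairs over 0.1, so the numbers were not taken to pair them. P10 and P20 2i/LIF, not compared here, did (0.30, 0.14 and 0.22). The EMM time-course columns carry numbers 2 to 4 under titles 1 to 3. By the column numbers, Serum/LIF replicates 2 and 3 had correlations of 0.28 and 0.15 with their 24 h libraries. They had 0.12 and −0.13 at 9 h, and 0.02 and −0.003 at 3 h, so pairing in the time course is not settled. With the numbers of the titles, the replicate block gave 95 lower at P10 and 67 at P20.

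Values near 0 changed sign (log2, EMM against Serum/LIF). Cdh3 at P20 was −0.0181 with DESeq2 size factors and with the DESeq2 test, −0.0877 with library totals, −0.0453 with 10 counts, −0.0117 with only the groups compared, and −0.0457 to 0.0964 without single libraries (negative also at −0.0223, −0.0362 and −0.000219). Parp14 at P10 was −0.0313, −0.0297, −0.0967, −0.0705 and −0.00759 in that order of settings, −0.0678 without the filter, and −0.0913 to 0.102 without single libraries (negative also at −0.0193 and −0.0562). Acot1 at P20 was −0.00301, −0.00492 and −0.0724 with size factors, DESeq2 and library totals, and −0.0321 to 0.0743 without single libraries. Without single libraries at P10, Gm37194 was −0.161 to 0.702, Myo1g −0.00567 to 0.458 and Bmf −0.301 to 0.0394, each with its sign changed without P10 EMM replicate 3. Magel2 at P20 was −0.125 to 0.337 (also −0.103).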
